A study of Mus musculus with 4 samples.

Results

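The genes described here are 8 of the 55450 in the gene count table: the peroxisome proliferator-activated receptor (PPAR) genes *Ppard*, *Ppara* and *Pparg*, the gene of their dimer partner RXRα, *Rxra*, and the fatty acid target genes *Pdk4*, *Angptl4*, *Cpt1a* and *Plin2*. They were taken by their listed names, none of which repeats in the table, and 6 of the 8 passed the filter on low counts. The counts come from RNA-seq of the murine line MLO-Y4, which resembles osteocytes, with 2 libraries in the unloaded group and 2 in the loaded group. The loaded cells grew on collagen-coated silicone membranes and were stretched equiaxially for 12 h at a frequency of 0.5 Hz and a strain of 20%. The unloaded cells were kept in the incubator of the same device for 12 h on ordinary 6-well plates, so that stretching and growth surface cannot be told apart. Both groups were at the same confluency when they entered the device. Nothing in the sources says whether the libraries of a group came from separate cultures, and p-values measure only the spread between these libraries, which may be technical.

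PPARs are nuclear receptors that are activated by fatty acids and their derivatives. They bind DNA as dimers with a retinoid X receptor (RXR) at direct repeats of a short hexamer, and turn on genes for the uptake, storage and oxidation of fatty acids. PPARδ, encoded by *Ppard*, is present in most tissues, PPARα is best known from liver and PPARγ from fat cells, where it drives adipocyte differentiation, also in bone marrow. Among their direct targets, *Cpt1a* encodes the carnitine palmitoyltransferase that admits long-chain fatty acids to mitochondria, *Pdk4* a kinase that switches off pyruvate dehydrogenase, *Angptl4* a secreted inhibitor of lipoprotein lipase, and *Plin2* a coat protein of lipid droplets. The question put to these genes was whether the targets move with the *Ppard* transcript.

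Total counts were between 28941994 and 32185693 per library. Genes were compared as CPM, counts relative to the library total scaled by edgeR's TMM factors. They were tested with edgeR's quasi-likelihood test and Benjamini-Hochberg adjustment over the 16269 genes that passed the filter, at an adjusted p of 0.01. The study set this threshold for its RNA-seq genes with DESeq2, which is given here as an alternative. Of the osteocyte and osteoblast-lineage markers, 7 of 12 had at least 10 counts in every library, among them *Pdpn* and *Gja1*. *Dmp1* was also among these 7, with only 12 to 14 counts. *Mepe* had no count and *Sost* had 4 counts in 1 library. *Alpl*, *Fgf23* and *Bglap* had at most 14 counts in any library. Of 7 adipocyte markers, *Adipoq*, *Lep*, *Cidec* and *Retn* had no count in any library, *Plin1* and *Cfd* had at most 4 counts in 1 library, and *Fabp4* had 202 to 273 counts, for a summed level of 6.96 and 7.95 CPM in unloaded and 7.87 and 9.29 CPM in loaded libraries. The summed level of 7 macrophage and leukocyte markers was 1633 and 1644 CPM in unloaded and 1604 and 1610 CPM in loaded libraries. Nearly all of it was *Csf1r*, with 45688 to 50270 counts per library, whereas *Ptprc*, *Adgre1* and *Itgam* had at most 4 counts in any library. Of the others, *Cd14* had 1310 to 1658 counts, with a log2 difference of loaded minus unloaded of -0.33 (edgeR adjusted p = 0.204), *Cd68* had 84 to 162 counts and a difference of -0.80 (edgeR adjusted p = 0.216), and *Lyz2* had 32 to 48 counts. The part of these markers in the results was not tested.

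Of the 6 tested members 0 were called at an adjusted p of 0.01 by edgeR, by DESeq2 or by limma-voom. Over all genes, edgeR called 0.0983% at this threshold (0.0123% higher and 0.0861% lower in loaded cells). At an adjusted p under 0.05 edgeR called none of the members and 0.904% of all genes (0.338% higher, 0.565% lower). DESeq2 called 2.91% of 12484 genes at 0.01 (1.36% higher, 1.55% lower), and at 0.05 it called 1 member, *Ppard*, and 4.88% of all genes (2.52% higher, 2.36% lower). Without adjustment, 3 of the 6 had an edgeR p under 0.05, with *Ppard* and *Cpt1a* on the higher and *Angptl4* on the lower side in loaded cells. This was so for 14.3% of all genes (6.88% higher, 7.46% lower). The 2 groups did not overlap in CPM for 4 of the 6 members, 2 in each direction, against 46.6% of all tested genes (22.1% higher, 24.5% lower). The median log2 fold change (log2FC, loaded minus unloaded) of the 6 was -0.025, and that of all tested genes was -0.0089. The plot of CPM by library shows these members.

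**Figure D1:**
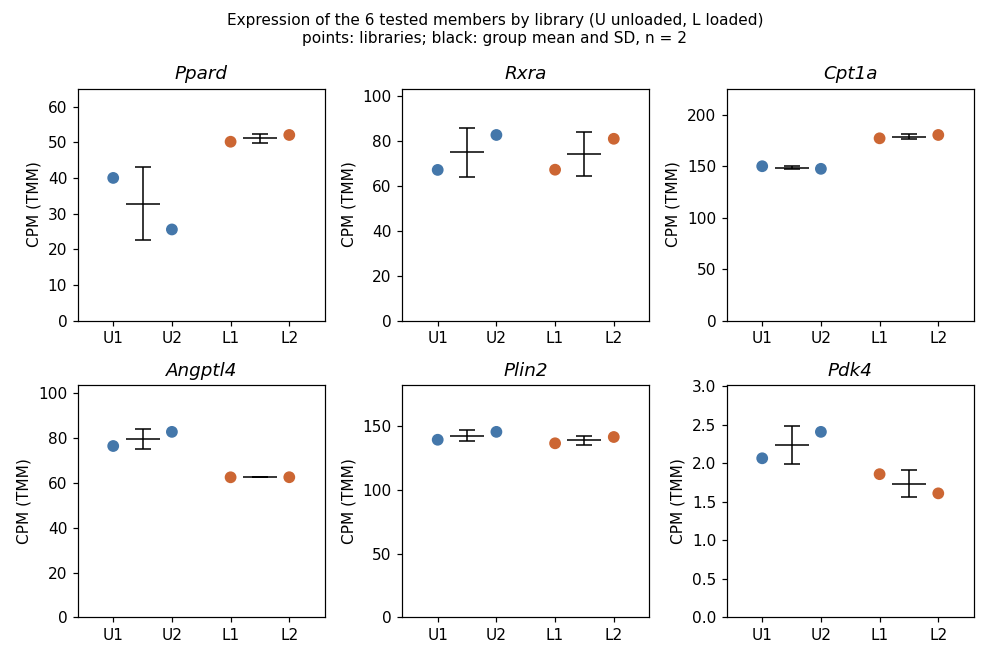
Expression of the 6 tested members in CPM (y axes, from 0) in each library (x axis, U unloaded and L loaded replicates). Points are libraries and black marks are group means with SD (n = 2); *Ppard* is lowest in unloaded replicate 2, *Cpt1a* is higher and *Angptl4* lower in both loaded libraries, and *Plin2* and *Rxra* overlap between groups.

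*Ppard* (ENSMUSG00000002250.16, GRCm38 chromosome 17, 28232700 to 28301474, plus strand) was the PPAR gene that MLO-Y4 cells expressed. Its counts were 1163 and 775 in unloaded replicates 1 and 2, and 1620 and 1553 in loaded replicates 1 and 2. Unloaded replicate 2 was the lowest library, and the groups did not overlap. In CPM this was 40.0 and 25.6 against 50.2 and 52.1, with means of 32.8 ± 10.2 (SD, n = 2) in unloaded and 51.2 ± 1.34 (SD, n = 2) in loaded cells. The log2FC was 0.64 (standard error 0.206, 95% confidence interval 0.14 to 1.14), with an edgeR adjusted p = 0.245. DESeq2 gave a log2FC of 0.65 with an adjusted p = 0.0213, which passed 0.05 but not 0.01. In bulk RNA, fewer cells with a transcript and less of it per cell cannot be told apart, here and below.

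The 2 unloaded libraries set how far this difference can be read. On the log2 CPM scale, *Ppard* was 0.65 higher in unloaded replicate 1 than in replicate 2, and the difference between the group means was 0.68. A gap of that size or more between the unloaded libraries was found in 2.19% of the 9684 genes with a mean of at least 10 CPM. In loaded cells replicate 1 minus replicate 2 was -0.053. Without unloaded replicate 2 the log2FC was 0.35 (edgeR adjusted p = 0.414), and without unloaded replicate 1 it was 1.01 (edgeR adjusted p = 0.0234), so either unloaded library moved its size by over 1.5 times. Leaving out a loaded library gave 0.61 and 0.67.

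The promoter windows of *Ppard*, *Plin2* and *Cpt1a* are printed from the RefSeq start sites (GRCm38.p6), as the receptor and the targets in which a searched motif was found. Each line holds 280 bases in the direction of transcription, of which the first 250 lie before the start. Capitals mark matches. In *Ppard* (chr17:28232504-28232783, plus strand) they mark the core of the antioxidant response element, the site of NRF2 and its relatives. In *Plin2* (chr4:86670030-86670309, minus strand) they mark a PPAR-RXR direct repeat with 2 mismatches, read on the strand opposite to the printed one, and in *Cpt1a* (chr19:3323051-3323330, plus strand) a single hexamer, read on that opposite strand too.
Ppard: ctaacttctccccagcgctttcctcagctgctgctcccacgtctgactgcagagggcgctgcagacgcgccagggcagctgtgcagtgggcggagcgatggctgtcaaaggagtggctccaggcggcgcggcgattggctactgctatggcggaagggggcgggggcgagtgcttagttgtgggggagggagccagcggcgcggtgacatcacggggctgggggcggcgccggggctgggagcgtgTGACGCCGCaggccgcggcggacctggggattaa
Plin2: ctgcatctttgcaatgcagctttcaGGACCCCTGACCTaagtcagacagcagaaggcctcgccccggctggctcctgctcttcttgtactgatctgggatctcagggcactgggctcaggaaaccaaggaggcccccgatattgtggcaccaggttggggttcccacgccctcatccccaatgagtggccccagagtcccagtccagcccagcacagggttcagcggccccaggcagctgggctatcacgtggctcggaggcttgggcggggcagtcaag
Cpt1a: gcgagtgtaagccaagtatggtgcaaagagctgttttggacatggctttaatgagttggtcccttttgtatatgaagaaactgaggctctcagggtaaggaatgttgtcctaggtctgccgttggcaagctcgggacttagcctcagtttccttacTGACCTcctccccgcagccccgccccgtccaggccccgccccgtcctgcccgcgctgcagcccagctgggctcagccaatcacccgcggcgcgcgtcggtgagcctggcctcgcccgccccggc

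The motifs were searched on both strands of 300-base windows from 250 bases before to 50 bases after each start. The antioxidant response element core, TGACNNNGC, matched in *Ppard* from position -4 to 4, where 0 is the first transcribed base, and 12.4% of 32851 promoter windows held it. Windows were matched for 7 of the 8 members, all but *Angptl4*. The direct repeat, 2 copies of AGGTCA in the same direction with 1 base between and up to 2 mismatches, matched in *Plin2* from -225 to -213 and in the second of 2 *Rxra* windows from -75 to -63. Of all windows 3.86% held it. The hexamer AGGTCA, which also lies inside the *Plin2* match, was held by 16.3% of all windows, by *Cpt1a* from -94 to -89, by the same *Rxra* window and by 2 *Pparg* windows, 1 of which held the antioxidant core too. The *Pdk4* and *Ppara* windows held none of these letters. A match describes letters in a window and was not tested for binding. Sequence outside these windows was not searched, so a window without a match does not show that the gene lacks such a site.

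*Ppara* (ENSMUSG00000022383.13, chromosome 15, 85734983 to 85802819) had no count in any library. *Pparg* (ENSMUSG00000000440.12, chromosome 6, 115360951 to 115490399) had 9 counts in unloaded replicate 1 and none in the other 3 libraries. Neither passed the filter, and no fold change is given. A limit of 3 counts corresponds to between 0.0930 and 0.103 CPM in these libraries, for counting error only. Low counts were uneven, with 1223 genes listed at 4 counts in unloaded replicate 1 against 623 at 3 and 764 at 5, and their part in the *Pparg* value was not tested. A listed count may not be a single read, so this limit is nominal.

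*Rxra* (ENSMUSG00000015846.14, chromosome 2, 27676440 to 27762957), whose product pairs with every PPAR, had 1947 and 2503 counts in unloaded and 2166 and 2411 counts in loaded cells. In each group replicate 2 was the higher library, and the groups overlapped. In CPM these were 67.0 and 82.6 against 67.1 and 80.9, a log2FC of -0.016 with a 95% interval of -0.36 to 0.33 (edgeR adjusted p = 0.975). *Rxrb*, another RXR isoform, had a mean of 30.2 ± 3.36 CPM in unloaded and 32.3 ± 2.29 CPM in loaded cells (SD, n = 2 per group, edgeR adjusted p = 0.780). *Rxrg* had no count in any library.

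Among the targets, *Cpt1a* (ENSMUSG00000024900.5, chromosome 19, 3322334 to 3385733) showed small gaps between replicates. Its counts were 4362 and 4475 in unloaded and 5723 and 5383 in loaded cells, or 150.2 and 148 CPM against 177 and 181 CPM. Both loaded libraries lay above both unloaded ones, and replicate 1 minus replicate 2 on the log2 CPM scale was 0.025 in unloaded and -0.026 in loaded cells. The log2FC was 0.27 (standard error 0.0640, 95% interval 0.11 to 0.42, edgeR adjusted p = 0.149). DESeq2 gave an adjusted p = 0.0587, and omitting single libraries gave values from 0.25 to 0.28.

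*Angptl4* (ENSMUSG00000002289.16, chromosome 17, 33773750 to 33781830) lay in the other direction. It had 2222 and 2510 counts in unloaded and 2018 and 1865 counts in loaded cells. Once scaled, these were 76.5 and 82.8 CPM against 62.5 and 62.6 CPM, with no overlap and nearly equal loaded libraries. The log2FC was -0.35 (standard error 0.0903, 95% interval -0.57 to -0.13, edgeR adjusted p = 0.169), and DESeq2 gave an adjusted p = 0.0772. Omitting single libraries gave values from -0.40 to -0.29.

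*Plin2* (ENSMUSG00000028494.12, chromosome 4, 86648386 to 86670060) had 4042 and 4405 counts in unloaded and 4401 and 4212 counts in loaded cells. The groups overlapped, at 142 ± 4.37 CPM and 139 ± 3.48 CPM (SD, n = 2 per group). Its log2FC was -0.035 with a 95% interval of -0.20 to 0.13 (edgeR adjusted p = 0.873).

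*Pdk4* (ENSMUSG00000019577.6, chromosome 6, 5483351 to 5496309) was the least expressed target. It had 60 and 73 counts in unloaded and 60 and 48 counts in loaded cells, or 2.07 and 2.41 CPM against 1.86 and 1.61 CPM. Both loaded libraries lay below both unloaded ones, but the interval of the log2FC of -0.37 ran from -1.14 to 0.41 (edgeR adjusted p = 0.662). At these counts neither direction was resolved. None of the 8 members shares annotated exon bases with another gene.

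**Figure D2:**
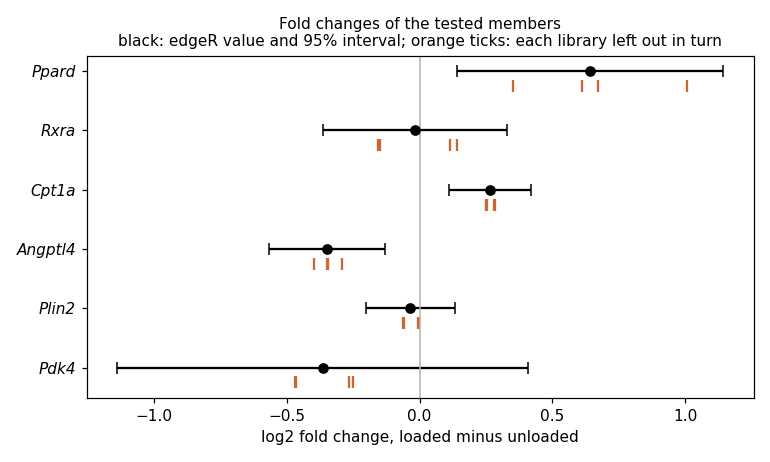
Log2FC values of the 6 tested members, loaded minus unloaded (x axis). Black points and bars are edgeR values with 95% intervals, and orange ticks are the values with each of the 4 libraries left out in turn; the ticks of *Ppard* spread from 0.35 to 1.01, those of *Cpt1a* from 0.25 to 0.28, and those of *Rxra* lie on both sides of 0.

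The targets were then set beside *Ppard* library by library. From unloaded replicate 2 to unloaded replicate 1, where *Ppard* differed by 0.65 on the log2 CPM scale, *Cpt1a* differed by 0.025, *Plin2* by -0.063, *Angptl4* by -0.11 and *Pdk4* by -0.22. Gaps as large as those of the targets are common between these libraries. Of the 9684 genes with a mean of at least 10 CPM, 86.4% had a gap as large as *Cpt1a*, 67.4% as *Plin2*, 45.3% as *Angptl4* and 20.4% as *Pdk4*. The order of the targets between these 2 libraries is therefore not read as a response. *Cpt1a* was lowest in unloaded replicate 2, as *Ppard* was, but by a margin far under that of *Ppard*, whereas *Plin2*, *Angptl4* and *Pdk4* were highest in the library where *Ppard* was lowest. Whether the fold change of a target differs from that of *Ppard* was not tested.

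As a measure of likeness, the root mean square difference between the log2 CPM of a gene and of *Ppard* was taken over the 4 libraries, after each gene was centred on its own mean. A gene with the same value in every library would have a difference of 0.41 from *Ppard*, and the median over 13323 genes with at least 1 CPM was 0.44. *Cpt1a* stood at 0.30, *Plin2* at 0.43, *Rxra* at 0.49, *Angptl4* at 0.58 and *Pdk4* at 0.60. Only *Cpt1a* among these 5 was therefore closer to *Ppard* than a flat gene is, and 8.13% of the genes compared were closer still. Of 86 pathway genes compared 26 were closer than a flat gene, and of all 13323 genes 5182 were. The 5 genes nearest to *Ppard* were *Gm17586* (0.05), *Gm9856* (0.06), *Gm31763* (0.06), *Serpinb1c* (0.07) and *Ccdc73* (0.08), each with a mean under 5 CPM and with its lowest value in unloaded replicate 2. With 4 libraries this likeness is a description only.

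**Figure D3:**
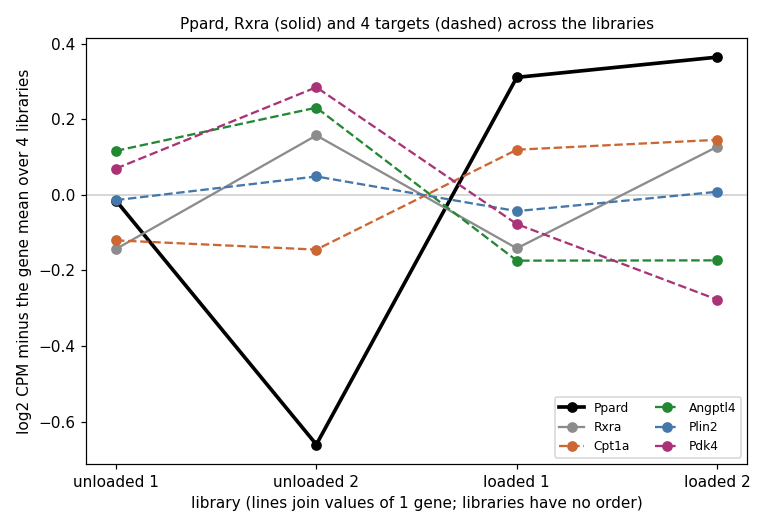
Log2 CPM of *Ppard*, *Rxra* (solid lines) and the targets *Cpt1a*, *Angptl4*, *Plin2* and *Pdk4* (dashed lines), each minus its own mean over the 4 libraries (y axis), by library (x axis). *Ppard* is at -0.66 in unloaded replicate 2, where *Cpt1a* is at -0.14 and the other 3 targets are at their highest, and *Cpt1a* is the target that is higher in both loaded libraries.

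Levels of different genes were compared as CPM per kilobase of annotated exon, averaged over all 4 libraries. *Plin2* was highest at 40.0 ± 1.08 (SD over 4 libraries), followed by *Cpt1a* at 21.5 ± 2.28 and *Angptl4* at 20.1 ± 2.88. The ranges of *Cpt1a* and *Angptl4* overlapped and their order cannot be told on this scale. *Rxra* followed at 13.6 ± 1.55, *Ppard* at 5.59 ± 1.62 and *Pdk4* at 0.566 ± 0.0962, and each of these ranges lay clear of the next. *Ppard* thus stood below *Rxra* and below 3 of the targets on this scale. With the longest transcript in place of all exons, *Ppard* was at 11.3, *Cpt1a* at 37.98 and *Plin2* at 74.5. The order of the 6 means was the same, but which ranges overlap depends on the length used. On the longest transcript the ranges of *Ppard* and *Rxra* overlap, so these 2 genes are called apart only per length of all exons.

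**Figure D4:**
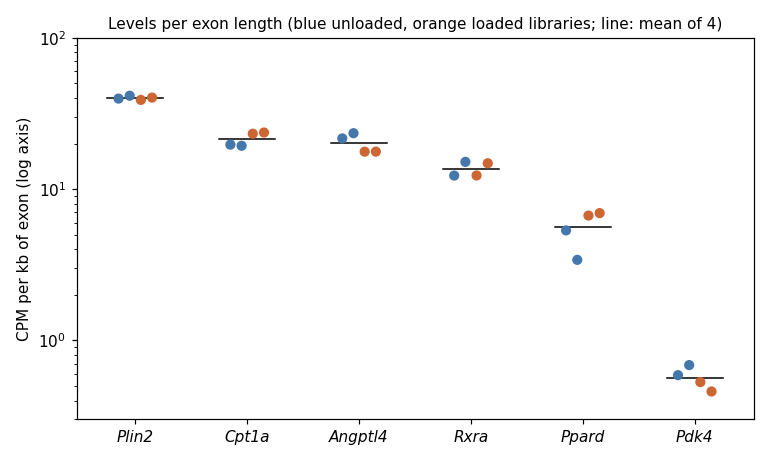
CPM per kilobase of exon (y axis, log scale) for the 6 tested members (x axis), with 1 point per library (blue unloaded, orange loaded) and a line at the mean of all 4. *Plin2* is highest, *Cpt1a* and *Angptl4* overlap, and *Pdk4* lies below 1.

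A list of 114 genes of the PPAR pathway, the 8 members included, was described around them, and 92 passed the filter. Of the 92, 0 were called at an adjusted p of 0.01 by edgeR or by limma-voom, and 1 by a robust edgeR fit. At an unadjusted p under 0.05 there were 9 higher and 9 lower genes, or 19.6% of those tested, against 14.3% of all genes. Among them, *Mgll* and *Acaa1b* passed the filter only through the group in which they were higher. The log2FC was positive for 34 and negative for 58, against 7889 positive and 8380 negative among all 16269 tested genes. The median of the list was -0.041, against -0.0089 for all tested genes. DESeq2 called 2 of 83 at an adjusted p of 0.01, *Plin4* higher and *Pdk1* lower, and 5 at 0.05, which were these 2, *Ppard*, *Cat* and *Slc27a1*, the last named after its values were seen. Over all genes DESeq2 called 2.91% at 0.01 and 4.88% at 0.05.

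*Plin4*, which encodes another lipid droplet coat protein, was the pathway gene with the smallest p. Its counts were 333 and 329 in unloaded and 901 and 769 in loaded cells. The groups were far apart, and expression was 11.2 ± 0.431 CPM against 26.9 ± 1.50 CPM (SD, n = 2 per group). The log2FC was 1.27 (standard error 0.122, edgeR adjusted p = 0.0189, which passed 0.05 and not 0.01), and DESeq2 gave an adjusted p = 5.29e-08. In the remaining alternatives that kept all libraries the adjusted p was at most 0.0379, and it was 0.0201 to 0.0684 with 1 library left out. The droplet genes *Plin2* and *Plin3*, at 40.0 and 20.3 CPM per kilobase against 3.29 for *Plin4*, had log2FC values of -0.035 and 0.012 (edgeR adjusted p = 0.873 and 0.972). *Plin4* shares 17 bases of exon with the opposite-strand gene *Hdgfl2*, and whether counting used strand is not given in the sources used here. For the same reason *Acsl5*, which shares 404 exon bases with *Zdhhc6*, is less certain.

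The genes of pyruvate dehydrogenase control and uncoupling included *Pdk4*. Of 7 tested genes 6 had a negative log2FC, with a median of -0.35, and 3 had an unadjusted p under 0.05, all lower (*Pdk1*, *Pdk3* and *Pdp1*, the last named after its values were seen), against 7.46% of all tested genes on the lower side. *Pdk1*, the kinase isoform known as a target of hypoxia signalling, had 2622 and 2803 counts in unloaded and 2210 and 1999 counts in loaded cells. This was 91.4 ± 1.56 CPM against 67.8 ± 1.005 CPM (SD, n = 2 per group) and a log2FC of -0.43 (edgeR adjusted p = 0.0982, DESeq2 adjusted p = 0.00713). *Pdk3* was at 64.3 ± 1.17 CPM and 54.0 ± 4.39 CPM (SD, n = 2 per group, edgeR adjusted p = 0.337). Per kilobase of exon, *Pdk4* was at 0.566 CPM over all 4 libraries, against 10.2 for *Pdk1* and 23.1 for *Pdk3*.

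*Cpt1a* belongs to the carnitine shuttle and mitochondrial β-oxidation. Of 22 tested genes 20 had a negative log2FC, against 8380 of all 16269 tested genes. *Cpt1a* and *Slc25a20*, the carnitine carrier, had a positive one, and the median of the 22 was -0.096. An unadjusted p under 0.05 was found for *Cpt1a* on the higher and for *Decr1* on the lower side, at -0.60 (edgeR adjusted p = 0.125), against 14.3% of all tested genes. *Slc25a20* and *Decr1* were named after their values were seen. The most highly expressed per length were *Etfa*, an electron carrier subunit, and *Acadl*, a long-chain acyl-CoA dehydrogenase. Their log2FC values were -0.099 (95% interval -0.32 to 0.13) and -0.035 (95% interval -0.26 to 0.20). Omitting single libraries gave -0.16 to -0.038 for *Etfa* and -0.095 to 0.035 for *Acadl*.

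In the peroxisomal and microsomal group, 4 of 12 tested genes had a positive and 8 a negative log2FC (median -0.059). An unadjusted p under 0.05 was found for *Cat* on the higher side and for 3 genes on the lower side. Of all tested genes this was so for 14.3% (6.88% higher, 7.46% lower). Among the 3 lower genes was *Acaa1b*, named after its values were seen, with 19 and 18 counts in unloaded and 3 and 0 in loaded cells. It passed the filter only through the unloaded libraries, so its lower side is no evidence of a direction. *Cat*, which encodes catalase, had 3043 and 3450 counts in unloaded and 4358 and 4405 counts in loaded cells. Both loaded libraries lay above the unloaded ones, at a mean of 141 against 109 CPM, a log2FC of 0.37 (edgeR adjusted p = 0.138, DESeq2 adjusted p = 0.0116).

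Lipid uptake, binding and activation held *Angptl4*. Of 12 tested genes 7 were positive and 5 negative (median 0.11). At an unadjusted p under 0.05, 1 was higher and 2 were lower, *Angptl4* among them, against 14.3% of all tested genes. The groups did not overlap for 10, 5 in each direction, against 46.6% of all tested genes (22.1% higher, 24.5% lower). *Acsl5*, an acyl-CoA synthetase, and *Dbi*, an acyl-CoA binding protein, had the highest levels per length, with log2FC values of -0.10 and 0.16 (edgeR adjusted p = 0.554 and 0.439). Omitting single libraries gave -0.17 to -0.040 for *Acsl5*. *Lpl*, the enzyme that ANGPTL4 inhibits, had no count in any library. Among 10 tested genes of lipid droplets and lipolysis 6 were positive and 4 negative, with a median of 0.035. An unadjusted p under 0.05 was found for 3, all higher, against 6.88% of all tested genes on the higher side. These were *Plin4*, *Abhd5* (log2FC 0.41, edgeR adjusted p = 0.188) and *Mgll*, the last 2 named after their values were seen. *Abhd5* shares 950 exon bases, 16% of its exon length, with the opposite-strand gene *A730085K08Rik*, and *Mgll* shares 167 with *Gm26588*. As the use of strand in counting is not given, both are less certain. *Mgll* had 0 counts in both unloaded and 22 and 14 in loaded libraries. It passed the filter on low counts only through the loaded libraries, so its higher side was given by the filter and is no evidence of a direction. With 3 counts set per unloaded library, *Mgll* would be 5.69-fold higher. This bound is nominal, because a listed 0 need not stand for at most 3 counts. *Cd36*, picked here for its values, was listed at 0 in unloaded replicate 1 and at 12 or 13 in every other library. Setting *Mgll* to this bound could not change the role median, because *Mgll* was the highest of the 10 either way.

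The coregulators and the other partners of RXR showed no call either. Of 15 tested coactivators and corepressors 9 were positive and 6 negative (median 0.031). An unadjusted p under 0.05 was found for 2, both higher, against 6.88% of all tested genes on the higher side. These were *Ppargc1b* (log2FC 0.70, edgeR adjusted p = 0.345) and *Ncoa1* (0.25, edgeR adjusted p = 0.334), named after their values were seen. *Med1*, a Mediator subunit that contacts PPARs, had 5874 and 6056 counts in unloaded cells and 6557 and 3450 in loaded cells, so loaded replicate 2 alone was low. Its log2FC of -0.33 (edgeR adjusted p = 0.585) became 0.015 without that library. *Hdac3*, a corepressor enzyme, had a log2FC of -0.061 (edgeR adjusted p = 0.828). Of 11 tested partners 3 were positive and 8 negative (median -0.094), and the most expressed per length, the retinoic acid receptor genes *Rarg* and *Rara*, had log2FC values of -0.039 and 0.17 (edgeR adjusted p = 0.853 and 0.578). Omitting single libraries gave -0.050 to -0.021 for *Rarg* and 0.051 to 0.31 for *Rara*.

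**Figure D5:**
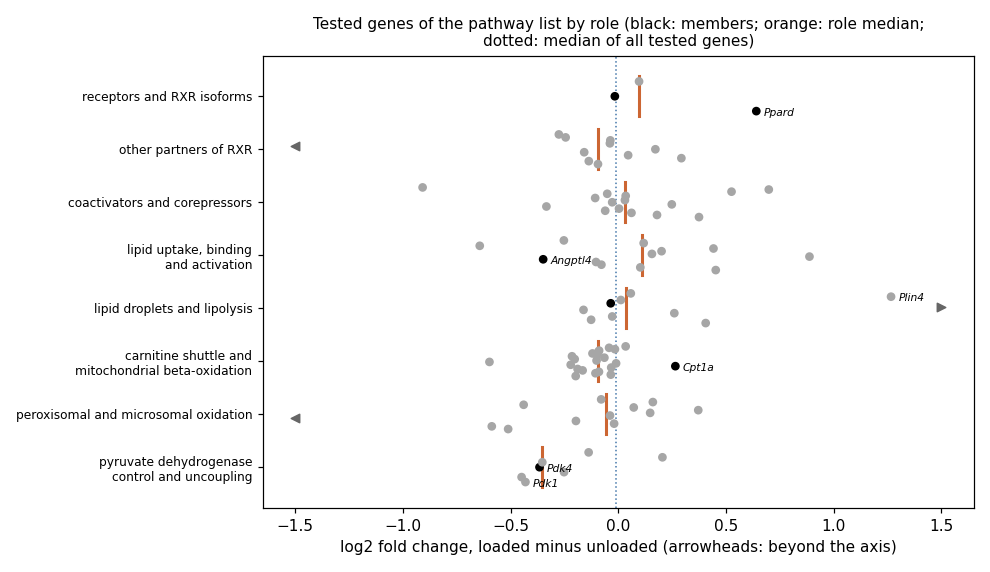
Log2FC values, loaded minus unloaded (x axis), of the 92 tested pathway genes grouped by role (y axis). Black points are members, grey points other genes, orange lines role medians and the dotted line the median of all tested genes; *Rarb*, *Mgll* and *Acaa1b*, with at most 24 counts per library, lie beyond the axis, *Plin4* is the farthest point to the right inside it, and 20 of the 22 β-oxidation genes lie left of 0.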

How the data were processed

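RNA-seq gene counts of 2 unloaded and 2 loaded MLO-Y4 libraries were analysed, grouped by sample title. Per the labels and the study's methods, the authors depleted ribosomal RNA, mapped trimmed reads to mm10 with HISAT2 2.1.0, assembled transcripts with StringTie 1.3.5 and made gene counts with prepDE. The deposited values are whole-number counts without normalization. The prepDE program derives counts from transcript coverage and a read length setting, so a listed count may not equal a read. Annotation release, strandedness and read length are not given in the sources used here. All 55450 identifiers are in GENCODE M21 (GRCm38), which gave positions and exon lengths. Promoters came from RefSeq (GRCm38.p6), with an entry for 7 of the 8 members.

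Genes were filtered with filterByExpr (minimum count 10), scaled by TMM and tested with edgeR 4.0.16 (glmQLFit, glmQLFTest) in R 4.3.3, without covariates. The standard error is the size of the log2FC divided by the square root of F. Likeness used log2 CPM with a prior count of 2. Alternatives were DESeq2 1.42.0, limma-voom (limma 3.58.1), a robust fit, RLE and upper-quartile factors, 2 other filters, a replicate block, an adjusted p under 0.05 and each library left out. DESeq2 at 0.05 was added after the data were seen. The procedure was checked on simulated counts.

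The members and lists were chosen with earlier results of these data known. Named were the 8 members, pathway genes with an adjusted p under 0.05 in edgeR or 0.01 in DESeq2, the 2 genes of each role with the highest CPM per kilobase, and the 5 genes of at least 1 CPM nearest to *Ppard*. Some genes that this rule names are not reported here. Markers are given with the cell type check, and endothelial and skeletal muscle markers summed to at most 3.37 CPM per library.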

Additional observations from a re-analysis of the deposited data

How the results depend on the processing

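Of the 6 tested members 0 were called at an adjusted p of 0.01 in any alternative run, and 1, *Ppard*, passed with DESeq2 at 0.05. Its log2FC ranged from 0.35 to 1.01 with single libraries omitted and from 0.64 to 0.68 in the other alternatives. *Cpt1a*, *Angptl4*, *Plin2* and *Pdk4* kept their direction in all of these. With single libraries omitted, *Rxra* ranged from -0.16 to 0.14 and changed sign without unloaded replicate 2 (0.14) or loaded replicate 1 (0.12). So did *Rxrb* (-0.0050 to 0.21) without unloaded replicate 1, *Med1* (-0.79 to 0.015) without loaded replicate 2, *Hdac3* (-0.14 to 0.027) without unloaded replicate 2, *Plin3* (-0.062 to 0.098) without unloaded or loaded replicate 1, and *Acadl* (-0.095 to 0.035) without unloaded replicate 1 or loaded replicate 2. Called pathway genes numbered 0 with edgeR, 1 with a robust fit, 1 at an adjusted p under 0.05, 2 with DESeq2 and 5 with DESeq2 at 0.05.

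Over all genes, 16 were called. The count was 363 with DESeq2, 609 with DESeq2 at 0.05, 57 with a robust fit, 29 with at least 10 counts in every library, 147 at an adjusted p under 0.05 and 0 without a filter. Omitting single libraries gave 0 without either loaded library, 50 without unloaded replicate 1 and 58 without unloaded replicate 2, where a lone library is assumed to vary like the other group. Fitting the replicate number as a block left 0 calls, and *Ppard* was at 0.67 (edgeR adjusted p = 0.275). Same-numbered libraries showed no shared deviation (correlation across genes -0.057), so the numbers are not taken to pair them. Per kilobase of the longest transcript, levels were 11.3 for *Ppard*, 74.5 for *Plin2* and 37.98 for *Cpt1a*, on shorter lengths by construction. Other causes of these shifts were not tested. With 2 libraries per group, intervals as wide as that of *Pdk4* leave its direction unresolved.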

Other observations

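Low counts were unevenly spread. In unloaded replicate 1, 530 genes were listed with 8 counts against 251 with 7 and 316 with 9, and 290 with 12 against 175 with 11 and 199 with 13. The other 3 libraries had the same peaks at 4, 8 and 12 counts, with 1228 to 1259 genes at 4. The cause was not tested. Of the fatty acid binding and transport genes of the pathway list, *Fabp1*, *Fabp5* and *Slc27a2*, named after their values were seen, were at 0 in every library.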
